A study of Mus musculus with 24 samples.

Results

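Glycogen is the branched glucose store of muscle. Ugp2 makes the UDP-glucose from which it is built, glycogenin (Gyg) primes each particle, glycogen synthase (Gys1) lengthens the chains and branching enzyme (Gbe1) adds the branch points, while the glycogen phosphorylases remove glucose units again. Protein phosphatase 1 (PP1) is brought to the particle by targeting subunits of the Ppp1r3 family, and there it dephosphorylates glycogen synthase, which activates the synthase, and phosphorylase, which inactivates it. The transcripts of 9 such genes were followed here: Ugp2, Gyg, Gys1 and Gbe1 for synthesis, the muscle (Pygm), brain (Pygb) and liver (Pygl) phosphorylases for breakdown, and the PP1 targeting subunits Ppp1r3b and Ppp1r3c. They were chosen by name for their function in glycogen metabolism, from 55487 genes listed, and all 9 were among the 14541 genes with enough reads to be tested.

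The libraries came from C2C12 cells, a mouse myoblast line that was wild type in every group, after differentiation into myotubes under 5 % O2 and collection at day 5. Every culture then spent 2 h at 5 % O2 or at 1 % O2, and was either left unstimulated (5 % CTRL and 1 % CTRL) or contracted by repeated short bouts of electrical pulses after that exposure (5 % STIM and 1 % STIM), with 6 biological replicates in each of the 4 groups. Because all cultures derive from 1 cell line, the replicates measure the spread between cultures of that line and not between animals. Medium was exchanged around stimulation. The sources used here do not say whether unstimulated cultures were handled in the same way or for the same time, so handling and contraction cannot be told apart.

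Each library held between 26541858 and 28173745 reads assigned to genes. All 8 myotube markers (Myog, Ckm, Acta1, Myh3, Des, Mymk, Tnnt3 and Actn2) had group means of at least 10 normalized counts, and the median of their sum was 447853 at rest and 418264 after stimulation at 5 % O2, and 400914 and 376235 at 1 % O2. The 6 markers of unfused or cycling myoblasts also stayed above that level, with median sums of 3599 and 4169 at 5 % O2 and 4353 and 4595 at 1 % O2. The members of both lists did not move together. At rest the mean of Top2a went from 1264 at 5 % O2 to 2130 at 1 % O2. Pax7 likewise went from 179 to 287, Myf5 from 149 to 231 and Cdk1 from 352 to 517. Ccnb1, however, went from 428 to 304 and Mki67 from 1250 to 1239. Among the myotube markers, Myh3 went from 139000 to 105591, Myog from 30613 to 19439 and Actn2 from 10785 to 7979. Ckm went from 9068 to 8073 and Tnnt3 from 44759 to 42123. Acta1 went from 161576 to 163668, Des from 37084 to 37784 and Mymk from 13093 to 13423. Markers of adipocytes and hepatocytes summed to at most 1.04 normalized counts in any library, those of endothelial cells to at most 13.3 and those of macrophages to at most 69.4, with 1 of the 2 macrophage markers under 1 in every group. A single library, 1 % CTRL replicate 1, stood apart in its myoblast sum (6167) and in the slope of its expression on gene length (0.0945 log2 units per log2 of length, against -0.0367 to 0.0550 in the other 23). No call of the 9 genes changed without it. The part of these differences in the results was not tested, and in bulk RNA a smaller share of cells of one type and less RNA per cell cannot be told apart.

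Promoter letters are shown first for genes that moved with O2, since low O2 acts on transcription largely through hypoxia-inducible factors, which bind the core letters ACGTG or GCGTG. RefSeq promoters (GRCm38.p6, 250 bases before to 50 after a start) were matched for 8 of the 9 genes, all but Ppp1r3b, in 9 windows, because Ugp2 had 2 starts. Each sequence reads 5′ to 3′ on the gene's strand and ends before the most upstream annotated start, and capitals mark the core on either strand.
Ppp1r3c, chr19:36736654-36736854, minus strand: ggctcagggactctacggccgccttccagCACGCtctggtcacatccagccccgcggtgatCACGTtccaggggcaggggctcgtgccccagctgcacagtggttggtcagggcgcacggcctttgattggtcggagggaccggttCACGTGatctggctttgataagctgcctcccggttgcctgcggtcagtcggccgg
Pygb, chr2:150786546-150786734, plus strand: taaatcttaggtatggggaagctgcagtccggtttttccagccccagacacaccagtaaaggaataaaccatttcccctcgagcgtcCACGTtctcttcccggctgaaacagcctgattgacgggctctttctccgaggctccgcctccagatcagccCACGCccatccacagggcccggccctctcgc
Pygm, chr19:6384158-6384398, plus strand: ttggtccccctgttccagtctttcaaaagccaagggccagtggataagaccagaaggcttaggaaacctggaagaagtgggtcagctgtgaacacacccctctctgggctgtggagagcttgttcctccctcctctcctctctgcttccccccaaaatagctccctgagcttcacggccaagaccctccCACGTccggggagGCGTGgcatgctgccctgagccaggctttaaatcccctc
Gys1, chr7:45434589-45434838, plus strand: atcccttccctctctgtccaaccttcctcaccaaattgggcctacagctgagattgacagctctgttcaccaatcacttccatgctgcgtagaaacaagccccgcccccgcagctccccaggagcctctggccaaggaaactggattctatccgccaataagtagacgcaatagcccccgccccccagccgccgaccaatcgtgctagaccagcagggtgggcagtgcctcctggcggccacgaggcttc
Gbe1, chr16:70313699-70313948, plus strand: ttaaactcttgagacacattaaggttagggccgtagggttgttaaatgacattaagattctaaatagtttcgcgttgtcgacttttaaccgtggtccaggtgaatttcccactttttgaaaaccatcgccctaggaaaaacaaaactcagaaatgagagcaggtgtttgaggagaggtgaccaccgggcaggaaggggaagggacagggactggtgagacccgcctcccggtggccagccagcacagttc

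Positions here are counted from the RefSeq start. The printed letters of Ppp1r3c, Pygb and Pygm end before an annotated start that lies 49, 61 and 9 bases upstream of it. The window of Ppp1r3c held 4 matches, of which a pair are the opposite strands of 1 palindrome, CACGTG, whose first base lies at -104. At least 4 matches occurred in 3.86 % of the 32851 promoter windows of this length, at least 2 in 20.6 % and at least 1 in 43.8 %. Pygb held 2 matches, at -163 and -92, and so did Pygm, at -61 and -48, although these genes moved in opposite directions, as described below. Neither Gys1 nor Gbe1 held one. Of the genes that were not called, Gyg held 3, Pygl held 2, and Ugp2 held 6 at one start and none at the other, some of them overlapping on opposite strands. ACGTG was in 19.6 % and GCGTG in 32.4 % of all windows, and the cyclic AMP response letters TGACGTCA, in 1.79 % of windows, were in none of the 9. These are letters only, and no binding was measured here.

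Under resting conditions at 5 % O2 the muscle phosphorylase and glycogen synthase were the leading transcripts of the set. Levels were compared between genes as normalized counts per kb of annotated exon, and 5 % CTRL gave Pygm 2424 ± 58.7 (SD, n = 6), Gys1 1427 ± 44.8, Ugp2 1059.9 ± 64.5, Gyg 787 ± 38.4, Gbe1 224 ± 10.7, Pygb 161 ± 5.11, Ppp1r3c 31.7 ± 3.12, Ppp1r3b 10.4 ± 1.73 and Pygl 3.30 ± 0.789. No neighbours in this order overlapped between libraries of that group. The order of the group means was the same in all 4 groups, but the gaps between the genes were not. In 1 % CTRL, Pygm (1986 ± 46.6) and Gys1 (1943 ± 65.0) overlapped, as did Ppp1r3c (133 ± 4.44) and Ppp1r3b (124 ± 10.2), and in 1 % STIM the latter pair overlapped again at 89.7 ± 3.05 and 79.4 ± 6.56. With the length of the longest transcript in place of all exons, Gys1 came above Pygm in 1 % CTRL (2531 against 2224) and Ppp1r3b above Ppp1r3c in both 1 % O2 groups (176 against 133 in 1 % CTRL and 113 against 89.7 in 1 % STIM), so the order within these pairs is not settled.

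**Figure D1:**
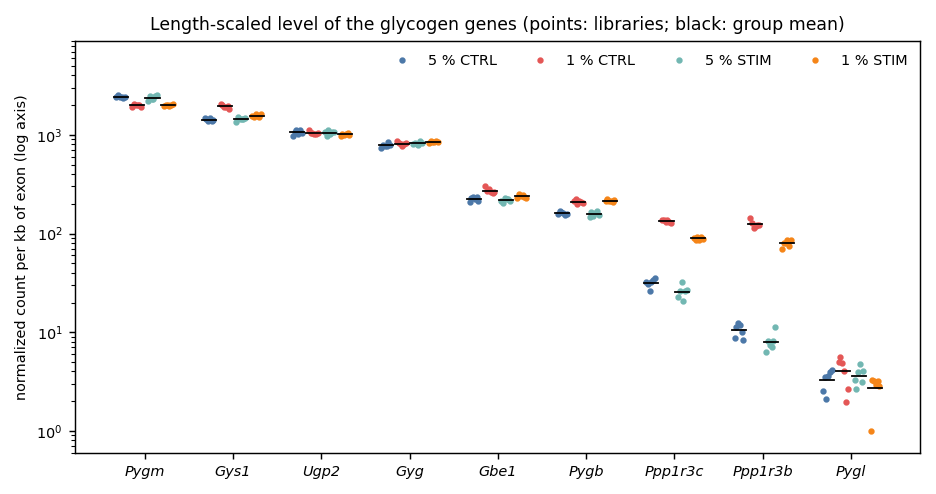
Normalized counts per kb of annotated exon (log axis) of the 9 glycogen genes, ordered by their mean in 5 % CTRL, with a point for each of the 6 libraries of a group and a black line at the group mean. The 2 PP1 targeting subunits sit near 10.4 and 31.7 in 5 % CTRL and between 124 and 133 in 1 % CTRL, while Pygl stays lowest in all groups.

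The comparison of 1 % CTRL with 5 % CTRL asks what 2 h of low O2 did to resting myotubes. Of the 9 genes, 5 were higher (Gys1, Gbe1, Pygb, Ppp1r3b and Ppp1r3c), Pygm was lower, and Ugp2, Gyg and Pygl did not pass the test (limma on log2(normalized count + 1), Benjamini-Hochberg adjusted p under 0.05 over all 14541 genes). The background was wide, since 59.9 % of all tested genes passed, 29.4 % of them higher and 30.5 % lower as shares of the genes tested. The 2 groups did not overlap for 6 of the 9 genes, against 38.2 % of all genes. The median log2 difference was 0.28 over the 9 genes and 0.0015 over all genes. By size, the log2 difference of Ppp1r3b was among the 7 highest and that of Ppp1r3c among the 65 highest of the 14541.

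Ppp1r3b (chromosome 8, 35375739 to 35388139, GRCm38, plus strand) encodes the targeting subunit known as GL, first described in liver. In 5 % CTRL its normalized count ran from 51.3 through a median of 66.3 to 77.5, and in 1 % CTRL from 713 through 754 to 889. The groups were far apart, with the lowest library at 1 % O2 well above the highest at 5 % O2. Group means of 64.8 ± 10.7 and 774 ± 63.3 gave an 11.9-fold difference, a log2 difference of 3.57 (SE 0.11, adjusted p = 1.9e-23). The pseudocount of 1 slightly understates the fold changes of genes as low as this one.

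Ppp1r3c (chromosome 19, 36731731 to 36736653, minus strand), the subunit also called protein targeting to glycogen, showed the same direction at a smaller size. Its 6 resting libraries at 5 % O2 lay between 71.2 and 96.3 with a median of 87.5, and those at 1 % O2 between 347 and 378 with a median of 364. The 2 ranges were again well separated. The means, 86.4 ± 8.52 and 363 ± 12.1, differed 4.20-fold (log2 difference 2.06, SE 0.08, adjusted p = 9.9e-21).

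**Figure D2:**
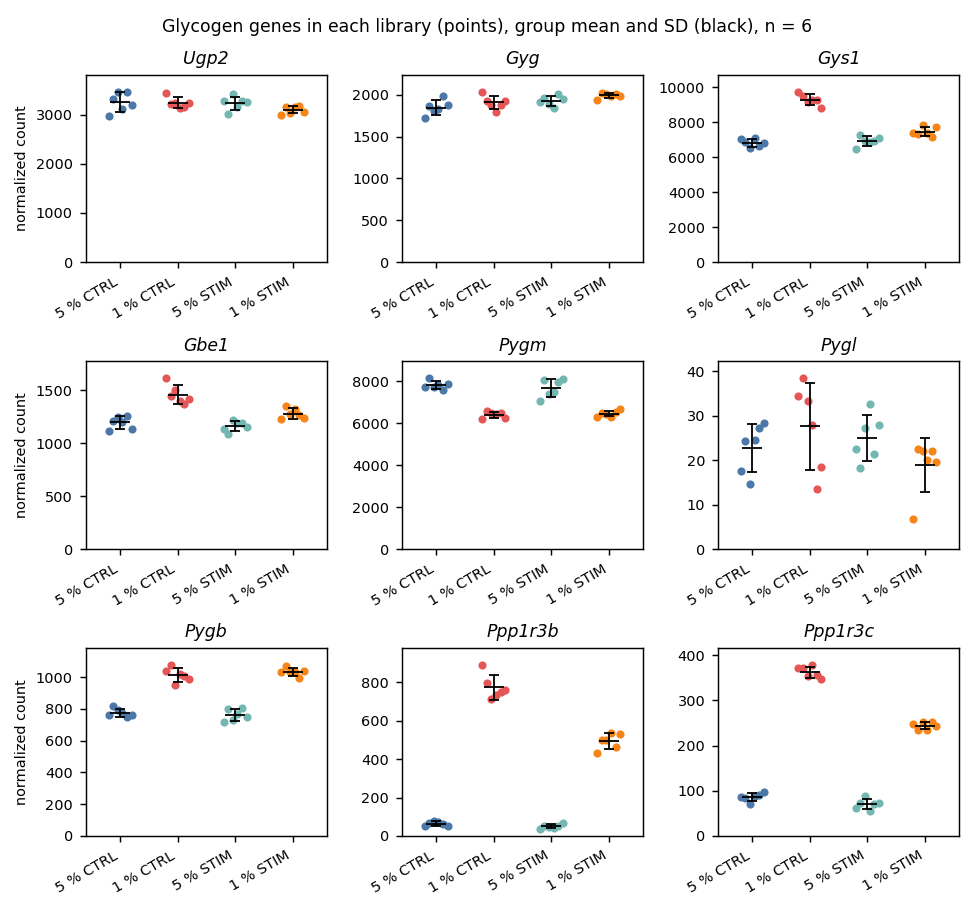
Normalized counts (linear axes from 0, a separate scale for each gene) of the 9 glycogen genes in the 24 libraries, with points for libraries and the group mean ± SD in black. Ppp1r3b and Ppp1r3c form high groups at 1 % O2 and low groups at 5 % O2, Gys1 is highest in 1 % CTRL, Pygm is lower and Pygb higher in both 1 % O2 groups, and Ugp2 and Gyg are nearly level.

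Among the synthesis enzymes of this set, the transcripts of the synthase and the branching enzyme were higher at 1 % O2. Those for priming and for UDP-glucose showed no difference that passed. Gys1 (chromosome 7, 45434844 to 45456619, plus strand) ran from 6549.8 through 6850.1 to 7095 in 5 % CTRL and from 8839 through 9282 to 9760.0 in 1 % CTRL, so the groups did not overlap. The mean was 36.2 % higher at 1 % O2 (9307 ± 311 against 6834 ± 215; log2 difference 0.45, SE 0.03, adjusted p = 9.9e-15). Gys1 shares 6.47 % of its exon bases with Ruvbl2 on the other strand, and counting used the default setting of RSEM, which does not use strand, so reads in those bases cannot be assigned to either. Ruvbl2 itself had a mean of 1047 in 5 % CTRL and 1349 in 1 % CTRL.

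Gbe1 (chromosome 16, 70313949 to 70569716, plus strand) lay between 1121 and 1257 in 5 % CTRL, with a median of 1208, and between 1369 and 1613 in 1 % CTRL, with a median of 1433. No libraries overlapped, and the mean was 21.8 % higher (1458 ± 89.1 against 1197 ± 57.5; log2 difference 0.28, SE 0.04, adjusted p = 2.1e-07). Ugp2 (chromosome 11, 21321138 to 21371201, minus strand) covered 2969 to 3465 in 5 % CTRL and 3132 to 3443 in 1 % CTRL, which overlap almost entirely, and its log2 difference was -0.006 (SE 0.035, adjusted p = 0.90). Gyg (chromosome 3, 20122084 to 20155317, minus strand) covered 1716 to 1988 and 1795 to 2036, with a log2 difference of 0.05 (SE 0.03, adjusted p = 0.22). When all libraries were instead rescaled to the same total, which moved the median of all genes up by 0.08, the difference of Gyg became 0.13 and passed (adjusted p = 0.0011).

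The 2 abundant phosphorylases moved in opposite directions. Pygm (chromosome 19, 6384399 to 6398459, plus strand), the isoform of mature skeletal muscle, fell by 18.1 % at 1 % O2, from libraries of 7555 to 8121 (median 7762) to libraries of 6194 to 6584 (median 6433), with no overlap. Its means were 7801 ± 189 and 6391 ± 150, a log2 difference of -0.29 (SE 0.03, adjusted p = 4.0e-10). Pygb (chromosome 2, 150786735 to 150831758, plus strand), the isoform first described in brain and also made by developing muscle, rose by 30.7 %, from 747 to 816 (median 769) to 949 to 1074 (median 1016), again with no overlap. Here the means were 776 ± 24.6 and 1014 ± 43.0, a log2 difference of 0.39 (SE 0.04, adjusted p = 8.9e-11).

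Pygl (chromosome 12, 70190811 to 70231488, minus strand), the liver isoform, was barely detected, with 14.7 to 28.3 normalized counts in 5 % CTRL and 13.4 to 38.4 in 1 % CTRL. These ranges overlap, and the log2 difference of 0.22 had an SE of 0.25 (adjusted p = 0.47), so a change of this size was not detectable at this depth.

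As percentages of the summed level of the 3 phosphorylases per kb, Pygb took 6.23 ± 0.108 % in 5 % CTRL, with libraries from 6.09 to 6.41, and 9.58 ± 0.386 % in 1 % CTRL, with libraries from 8.92 to 10.1. Pygm took 93.6 ± 0.0884 % and 90.2 ± 0.405 %, and Pygl 0.128 ± 0.0305 % and 0.182 ± 0.0632 %. Their summed level was 2589 ± 63.0 per kb at 5 % O2 and 2201 ± 49.4 at 1 % O2, and the ranges of these totals (2507 to 2697 and 2145 to 2275) did not overlap. These shares are a description without a test of their own. The sum of the myotube markers at rest was also lower and that of the myoblast markers higher at 1 % O2. These sums moved mostly through Myh3 and Myog and through Top2a. Actn2, Ckm and Tnnt3 were lower too, and Pax7, Myf5 and Cdk1 were higher too. Acta1, Des, Mymk and Mki67 were nearly level, and Ccnb1 went the opposite way to its list. The part of the markers in the shift between the isoforms was not tested.

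**Figure D3:**
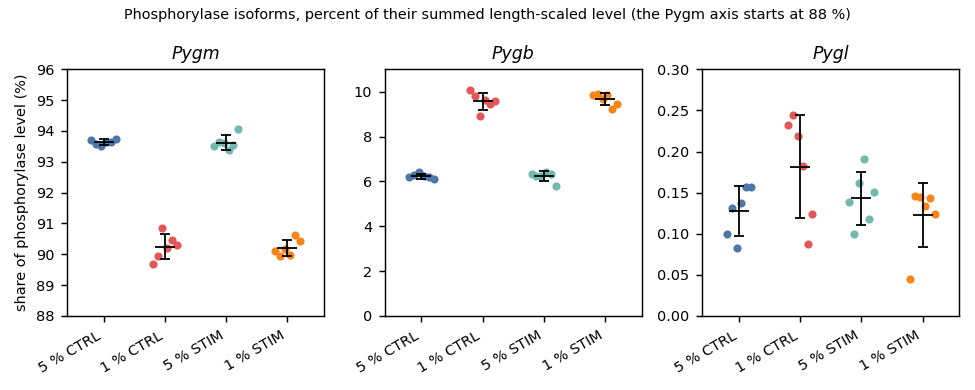
Each phosphorylase isoform as a percentage of the summed level per kb of all 3 (y axes differ, and that of Pygm starts at 88 %), with a point for each library and the group mean ± SD in black, for the 4 groups of 6 libraries. Pygb lies near 6.23 % in both 5 % O2 groups and at 9.58 % and 9.67 % in the 1 % O2 groups, and Pygm is the complement.

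The same O2 comparison in stimulated myotubes, 1 % STIM against 5 % STIM, asks whether low O2 leaves a like mark when the cells have contracted. The same 5 genes were higher, Pygm was again lower, and Ugp2, Gyg and Pygl again did not pass, where 57.4 % of all tested genes passed (29.0 % higher and 28.4 % lower). Groups did not overlap for 5 of the 9, against 37.3 % of all genes. The median log2 difference was 0.11 over the 9 genes and -0.0008 over all genes.

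Ppp1r3b ran from 38.8 through 48.3 to 70.2 in 5 % STIM and from 431 through 499 to 538 in 1 % STIM, with no overlap. The mean was 9.87-fold higher at 1 % O2 (494 ± 40.8 against 50.03 ± 10.8; log2 difference 3.30, SE 0.11, adjusted p = 1.9e-22). Ppp1r3c ran from 56.2 through 71.3 to 87.8 and from 234 through 246 to 253, a 3.49-fold difference of the means (244 ± 8.30 against 70.0 ± 10.9; log2 difference 1.80, SE 0.08, adjusted p = 5.3e-19). Of the 14541 genes in this comparison, Ppp1r3b was among the 7 and Ppp1r3c among the 77 with the highest log2 differences.

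Gys1 differed by much less than at rest. It ran from 6464 through 6949 to 7263 in 5 % STIM and from 7186 through 7372 to 7836 in 1 % STIM, so the groups overlapped at their edges, and the mean was 7.60 % higher (7465 ± 253 against 6937 ± 271; log2 difference 0.11, SE 0.03, adjusted p = 0.0031). Gbe1 ran from 1085 through 1172 to 1217 and from 1229 through 1271 to 1353, with no overlap, and the mean was 10.2 % higher (1282 ± 49.2 against 1163 ± 47.3; log2 difference 0.14, SE 0.04, adjusted p = 0.0033). For Ugp2 the log2 difference was -0.06 (SE 0.04, adjusted p = 0.15) and for Gyg 0.05 (SE 0.03, adjusted p = 0.21), and the latter passed at 0.12 (adjusted p = 0.0025) after rescaling to the same total.

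Both abundant phosphorylases kept their O2 difference under stimulation. Pygm lay between 7061 and 8113 in 5 % STIM, with a median of 7713, and between 6295 and 6661 in 1 % STIM, with a median of 6454, and it fell by 15.8 % without overlap (means 7665 ± 426 and 6451 ± 138; log2 difference -0.25, SE 0.03, adjusted p = 1.2e-08). Pygb lay between 715 and 807 (median 758) and between 992.5 and 1068 (median 1033), and rose by 35.6 % without overlap (means 762 ± 37.3 and 1033 ± 24.2; log2 difference 0.44, SE 0.04, adjusted p = 4.7e-12). Its share of the phosphorylase level was 6.23 ± 0.231 % in 5 % STIM and 9.67 ± 0.279 % in 1 % STIM. Pygl did not pass, at -0.45 (SE 0.25, adjusted p = 0.13), with ranges of 18.3 to 32.7 and 6.82 to 22.5 that overlapped.

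**Figure D4:**
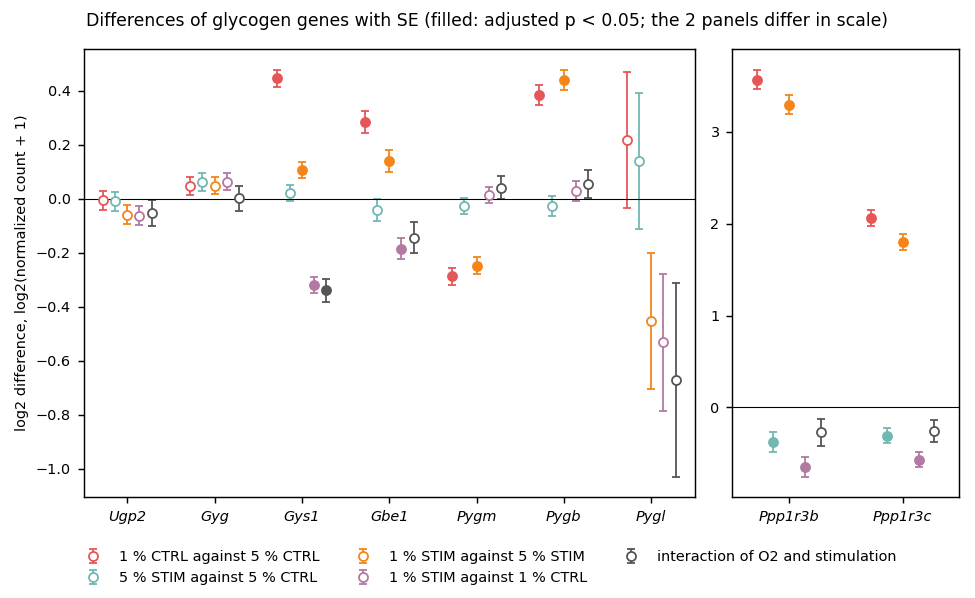
Log2 differences (log2(normalized count + 1), with SE bars) of the 9 genes in the 4 comparisons and in the interaction of O2 and stimulation, filled where the limma adjusted p was under 0.05, with a separate scale for the PP1 targeting subunits. Ppp1r3b at 3.57 and 3.30 and Ppp1r3c at 2.06 and 1.80 have the largest O2 differences, and Gys1 alone has a filled interaction, at -0.34.

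Stimulation at 5 % O2, 5 % STIM against 5 % CTRL, left most of these transcripts without a detectable difference. Only Ppp1r3b and Ppp1r3c passed, both lower, where 21.4 % of all tested genes passed (9.44 % higher and 12.0 % lower), and the groups overlapped for all 9 genes, against 11.1 % of genes that did not overlap. The median log2 difference was -0.03 over the 9 genes and -0.008 over all genes.

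Ppp1r3b fell by 22.8 % on the mean (log2 difference -0.38, SE 0.11, adjusted p = 0.010) and Ppp1r3c by 19.0 % (log2 difference -0.31, SE 0.08, adjusted p = 0.0067). Both calls were weak, since they used the spread of all 4 groups, and with the 2 compared groups fitted alone the limma adjusted p was 0.061 for Ppp1r3b and 0.055 for Ppp1r3c. With limma voom on the reads the adjusted p of Ppp1r3b was 0.11. The other log2 differences were between -0.04 for Gbe1 and 0.06 for Gyg (adjusted p = 0.53 and 0.19) apart from the noisier Pygl, at 0.14 (SE 0.25, adjusted p = 0.75). Gyg passed at 0.09 after rescaling to the same total (adjusted p = 0.041).

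Stimulated and resting cells were compared at 1 % O2 in the same way, 1 % STIM against 1 % CTRL. Here 4 were lower and none higher (Gys1, Gbe1, Ppp1r3b and Ppp1r3c), where 22.3 % of all tested genes passed, 10.8 % of them lower and 11.5 % higher as shares of the genes tested. The same 4 genes did not overlap between the groups, against 11.2 % of all genes, and the median log2 difference was -0.18 over the 9 genes and -0.003 over all genes. These 4 were also among the 5 genes that were higher in 1 % CTRL than in 5 % CTRL, but both comparisons use the 1 % CTRL libraries, so high values there move both and the overlap of the lists is not independent evidence.

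Gys1 fell by 19.8 % (from 9307 ± 311 to 7465 ± 253; log2 difference -0.32, SE 0.03, adjusted p = 3.0e-10) and Gbe1 by 12.1 % (from 1458 ± 89.1 to 1282 ± 49.2; log2 difference -0.18, SE 0.04, adjusted p = 0.00067). Ppp1r3b fell by 36.2 %, from 774 ± 63.3 to 494 ± 40.8 (log2 difference -0.65, SE 0.11, adjusted p = 1.9e-05), and Ppp1r3c by 32.7 %, from 363 ± 12.1 to 244 ± 8.30 (log2 difference -0.57, SE 0.08, adjusted p = 2.4e-06). Both targeting subunits stood, in 1 % STIM, below 1 % CTRL and still far above either 5 % O2 group. Neither Pygm (0.01, SE 0.03, adjusted p = 0.81) nor Pygb (0.03, SE 0.04, adjusted p = 0.67) showed a difference between stimulated and resting cells at 1 % O2. Pygl, at -0.53 (SE 0.25, adjusted p = 0.14), was not called, although it was without 1 % CTRL replicate 5 (log2 difference -0.71, adjusted p = 0.039).

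Whether stimulation acted differently at the 2 O2 levels was tested directly by the interaction, the log2 difference of stimulated from resting cells at 1 % O2 minus that at 5 % O2. Of the 9 genes, Gys1 alone passed, at -0.34 (SE 0.04, adjusted p = 7.3e-07), where 11.3 % of all tested genes passed (5.88 % above 0 and 5.43 % below). Gys1 was 1.51 % higher in stimulated than in resting cells at 5 % O2, a log2 difference of 0.02 (SE 0.03, adjusted p = 0.68) that did not pass, and fell by 19.8 % at 1 % O2. Read the other way, its O2 difference was 0.45 at rest and 0.11 after stimulation. Ruvbl2, which overlaps it on the other strand, had means of 1349 and 1178 in 1 % CTRL and 1 % STIM.

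Ppp1r3b (-0.27, SE 0.15, adjusted p = 0.27) and Ppp1r3c (-0.26, SE 0.12, adjusted p = 0.16) did not pass, so their falls with stimulation at 1 % and at 5 % O2 were not shown to differ on the log2 scale. Gbe1 had an interaction of -0.14 (SE 0.06, adjusted p = 0.10), which passed only with each library's slope on gene length as a covariate (-0.18, adjusted p = 0.016). For Ugp2, Gyg, Pygm and Pygb the interactions lay between -0.05 and 0.05 with SE of at most 0.05, and for Pygl the SE was 0.36.

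A further 23 genes of glycogen metabolism were read beside these, of which 20 had enough reads and Gys2, Ppp1r3d and Ppp1r3g did not. At rest 6 of the 20 were higher and 5 lower at 1 % O2, a share of 55 % called, below the 59.9 % of all genes, and with stimulation 8 were higher and 3 lower, again 55 % called, beside 57.4 % of all genes. Of the 5 tested targeting subunits, 4 were higher in 1 % CTRL than in 5 % CTRL, beside 29.4 % of all tested genes. They were Ppp1r3b and Ppp1r3c, and besides them the low-count Ppp1r3e (log2 difference 1.18, SE 0.23, adjusted p = 3.6e-05) and Ppp1r3f (0.66, SE 0.21, adjusted p = 0.0083). Ppp1r3f shares 46.9 % of its exon bases with Gm36995 on the same strand, so its count is uncertain. Ppp1r3a, the main targeting subunit of skeletal muscle, was the exception at rest and was lower (-0.52, SE 0.08, adjusted p = 2.4e-06). In 1 % STIM against 5 % STIM it did not pass (-0.19, SE 0.08, limma adjusted p = 0.0502), and the groups overlapped.

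Pgm1, the phosphoglucomutase that links glucose 6-phosphate with the glucose 1-phosphate used or released by these enzymes, followed a course close to that of Gys1. It was 1.52-fold higher in 1 % CTRL than in 5 % CTRL (log2 difference 0.60, SE 0.03, adjusted p = 4.6e-18), 1.20-fold higher in 1 % STIM than in 5 % STIM (0.26, SE 0.03, adjusted p = 7.6e-09) and lower in 1 % STIM than in 1 % CTRL (-0.39, SE 0.03, adjusted p = 3.6e-12). Its interaction of -0.34 (SE 0.04, adjusted p = 7.1e-07) was the only one of the 20 that passed. Pgm1 shares 13.6 % of its exon bases with Itgb3bp on the other strand, whose means were 88.3 in 5 % CTRL and 98.8 in 1 % CTRL.

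On the breakdown side, acid alpha-glucosidase (Gaa), which degrades glycogen in lysosomes, was lower at 1 % O2 at rest (-0.25, SE 0.03, adjusted p = 6.1e-08) and after stimulation (-0.25, SE 0.03, adjusted p = 5.3e-08). Of the 5 subunits of phosphorylase kinase, which activates phosphorylase, Phka2 was lower in both O2 comparisons (-0.51 and -0.54, SE 0.05 each), as was Phkb (-0.22 and -0.19, SE 0.04 each), and Phkg2 was higher in both (0.36 and 0.34, SE 0.07 each). Phkg2 shares 21.9 % of its exon bases with Ccdc189 on the other strand. Phka1, the alpha subunit of muscle, passed in neither. Phkg1, the muscle gamma subunit, had low counts, with means of 21.8 in 5 % CTRL and 14.2 in 1 % CTRL and groups that overlapped. It passed at rest (-0.66, SE 0.23, adjusted p = 0.014) and not after stimulation (0.05, SE 0.23, adjusted p = 0.88). The difference between these O2 effects did not itself pass (interaction 0.71, SE 0.33, adjusted p = 0.17), and 9.68 % of the exon bases of Phkg1 are shared with Sumf2 on the other strand.

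Neither synthase kinase, Gsk3a or Gsk3b, passed in any comparison, and no more did Epm2a (laforin) or Nhlrc1 (malin), which guard against abnormal glycogen. The PP1 catalytic subunits Ppp1ca and Ppp1cc were higher by 0.12 and 0.11 at rest and by 0.08 and 0.17 after stimulation (SE 0.03 each), and Ppp1cb did not pass. Ppp1cc shares 37.2 % of its 75-base exon words with other genes and Ppp1ca overlaps Rad9a, so these small differences are uncertain.

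Stimulation moved few of the 20. At 5 % O2, Stbd1, which tethers glycogen to membranes, was higher (0.14, SE 0.04, adjusted p = 0.0060), and Ppp1r3e (-0.77, SE 0.23, adjusted p = 0.014), Pgm2 (-0.17, SE 0.04, adjusted p = 0.0048) and Ppp1cc (-0.12, SE 0.03, adjusted p = 0.0044) were lower. At 1 % O2, Stbd1 (0.16, SE 0.04, adjusted p = 0.00098) and Ppp1r3a (0.29, SE 0.08, adjusted p = 0.011) were higher, and Pgm1 and, at -0.08, Ppp1ca (adjusted p = 0.040) were lower. These are 4 of 20 genes in each comparison, or 20 %, beside the 21.4 % and 22.3 % of all genes.

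**Figure D5:**
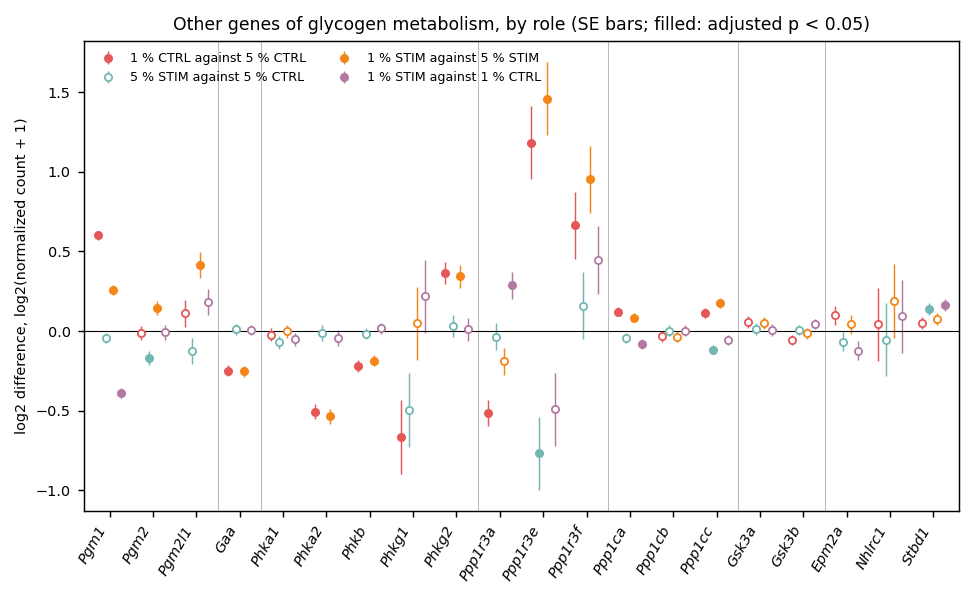
Log2 differences with SE bars of 20 other genes of glycogen metabolism in the 4 comparisons, grouped by role and filled where the limma adjusted p was under 0.05. Ppp1r3e has the highest values, 1.18 at rest and 1.46 after stimulation, in the comparisons of 1 % with 5 % O2, and Pgm1 falls from 0.60 to 0.26 between them.

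Genes with the most similar pattern over the 4 group means to the targeting subunits were ranked by the root mean square distance of centred log2 means, among 10771 genes. Nearest to Ppp1r3b were Zfp395 (distance 0.16), Adm, which encodes the vasodilator adrenomedullin (0.18), and Apln, which encodes the peptide apelin (0.24). Adm had means of 112 ± 14.1 and 86.7 ± 13.2 at 5 % O2, resting and stimulated, and of 1769.8 ± 47.0 and 1061 ± 79.6 at 1 % O2. Nearest to Ppp1r3c were Slc2a1, the glucose transporter GLUT1 (0.07), Samd1 (0.08) and Dtl (0.09). Slc2a1 had means of 2813 ± 117 and 2614 ± 127 at 5 % O2 and of 12888 ± 269 and 8337 ± 325 at 1 % O2, a far more abundant transcript with nearly the same proportions between groups. The likeness rests on 4 group means and says nothing of a shared function or control.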

How the data were processed

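Libraries were made from polyadenylated RNA with a stranded kit (TruSeq), and per the labels the authors used FastQC 0.11.7, STAR 2.5.4b on GRCm38 and RSEM 1.3.0, then divided the gene counts by DESeq2 size factors. The deposited values are these normalized counts, a signal per gene that is comparable between libraries. RSEM was run with its default parameters, which do not use strand, so reads of genes that overlap on opposite strands cannot be told apart. A second deposited table, which holds the authors' own log2 fold changes, p-values and calls, was not used. Whole reads were recovered from the smallest step of each library for 100 % of values (tolerance 0.001), with size factors of 0.955 to 0.992 at 5 % O2 and 1.02 to 1.05 at 1 % O2. On these reads edgeR 4.0.16 (quasi-likelihood) called 8784 and 8425 genes for O2 at rest and after stimulation, 3156 and 3377 for stimulation at 5 % and 1 % O2, and 1688 for the interaction.

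The main test was limma 3.58.1 (R 4.3.3, trend and robust variance) on log2(normalized count + 1) over the 24 libraries and 4 groups, for the 14541 genes with at least 10 normalized counts in at least 6 libraries, with Benjamini-Hochberg adjustment over all of them and a threshold of 0.05. Tests were two-sided, and the procedure was tested on simulated data in which few genes changed. Most tested genes passed in the O2 comparisons here, a setting that the simulation does not cover. Symbols came from GENCODE annotation of GRCm38, which held 99.5 % of the IDs, and lengths are merged exons. No replicates were identical (chi-square per gene between replicates 2.57 to 22.0). The 9 genes and the lists beside them were chosen with earlier results of these data known, so no list is an independent choice. A gene of the wider list is not reported here and is left out of its counts. The text names all 9, the other listed genes, and the 3 nearest genes to each targeting subunit. Alternatives were another pseudocount (10), no filter, a threshold of 0.01, a replicate block, a fit of only the compared groups, equal totals for all libraries, array weights, omission of 1 % CTRL replicate 1 or of each library in turn, the slope on gene length as a covariate, edgeR, limma voom and DESeq2 1.42.0, and the longest transcript for levels per kb.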

Additional observations from a re-analysis of the deposited data

Results flagged for a closer look

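Ugp2 in 1 % CTRL replicate 1 had a normalized count of 3443, apart from the other 5 libraries of that group at 3132 to 3236, and this is the library that also stood apart in its slope on gene length. Pygl in 1 % STIM replicate 1 had 6.82, below the other 5 at 19.5 to 22.5. These are 2 of 36 groups of 6 libraries in which the gap between the extreme library and its nearest neighbour was large for the range, and chance gives about 1 in 20 such groups. Neither gene was called in any of the 4 comparisons. The effect of stimulation on Gys1 differed between the O2 levels, with an interaction of -0.34 (SE 0.04, limma adjusted p = 7.3e-07), the log2 difference being 0.02 at 5 % O2 and -0.32 at 1 % O2.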

How the results depend on the processing

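Each of 45 results (9 genes in 4 comparisons and the interaction) was recomputed under 12 alternatives, of which the fit of the compared groups alone cannot give the interaction. Without any one library, the numbers of called genes stayed at 6 for both O2 comparisons, 2 for stimulation at 5 % O2 and 1 for the interaction, and ranged from 4 to 5 for stimulation at 1 % O2, where Pygl was the single call that changed, without 1 % CTRL replicate 5. For 5 % STIM against 5 % CTRL the main count of 2 called genes became 1 at an adjusted p under 0.01, 0 with the compared groups alone and 1 with limma voom, and the interaction count of 1 became 2 with the length covariate. All values that changed sign were near 0 and not called. Ugp2 went to 0.075 and 0.00099, and from -0.032 to 0.013 without 1 library, for 1 % CTRL against 5 % CTRL (rescaled totals, then length covariate), to 0.022 and 0.0066, and from -0.035 to 0.010 without 1 library, for 5 % STIM against 5 % CTRL, and to 0.011 with rescaled totals for 1 % STIM against 5 % STIM. With rescaled totals Pygm and Pygb went to 0.0045 and 0.0044 for 5 % STIM against 5 % CTRL. The Gyg interaction went to -0.0093 with rescaled totals, -0.021 with the length covariate, -0.0014 with edgeR, -0.0013 with limma voom and, at lowest, -0.021 without 1 library.

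With the longest transcript as length, the shares in 5 % CTRL, 1 % CTRL, 5 % STIM and 1 % STIM were 93.0, 89.2, 92.9 and 89.3 % for Pygm, 6.80, 10.4, 6.80 and 10.5 % for Pygb and 0.248, 0.351, 0.278 and 0.237 % for Pygl. Rescaling to the same total changed the split of all calls from 4271 higher and 4437 lower to 5685 and 3375 for 1 % CTRL against 5 % CTRL, from 1372 and 1743 to 1862 and 1133 for 5 % STIM against 5 % CTRL, from 4210 and 4136 to 5474 and 3182 for 1 % STIM against 5 % STIM, and from 1668 and 1577 to 2137 and 1293 for 1 % STIM against 1 % CTRL. At an adjusted p under 0.01 the calls over all genes went from 3115 to 1944 for 5 % STIM against 5 % CTRL and from 1645 to 830 for the interaction. The cause of these differences was not tested. Among the 9 genes Pygl had the lowest counts, with group means of 18.9 to 27.6 normalized counts.

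The deviations of 36 same-numbered pairs of libraries correlated between -0.15 and 0.15 (median 0.0062, 2 over 0.1), so no pairing by replicate number was seen in them. Of 24 libraries, 7 were closest to one of their own number. That count was not set against chance, so it does not decide the question. With the replicate number as a block the called genes were 6 and 6 for O2 at rest and after stimulation, 2 and 4 for stimulation at 5 % and 1 % O2 and 1 for the interaction, with calls over all genes of 8730 and 8350, 3190 and 3320, and 1710. The block changed no call of the 9 genes.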
